A study of Mus musculus with 15 samples.

Results

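Of the 15 mouse brain libraries of the series, 5 held more than 1000 CPM of Ttr, the gene of transthyretin, and 10 held less. The 5 are called choroid-rich and the 10 choroid-poor, because Ttr is the leading transcript of the choroid plexus epithelium. CPM is the raw count of a gene divided by all counts that the library assigned to genes, scaled to 1000000 counts. The lowest choroid-rich library held 1687 CPM of Ttr and the highest choroid-poor library held 108 CPM, so no library lay near the threshold. Because the measured values of Ttr made the classes, and other choroid genes vary with Ttr, each difference between the classes is a description of the libraries chosen in this way. For such genes no p-value is given, and counts of called genes, or of genes under an unadjusted p, only list genes. Labels and read assignment, which the rule did not use, were tested.

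Poly(A) RNA was sequenced from a brain region, not named in the sources used here, that was cut from 1 hemisphere of each of 15 perfused mice, with 1 mouse for each library. The APP-PS1 mouse carries the transgenes Mo/HuAPP695swe, a mutant mouse-human form of the amyloid precursor, and PS1-dE9, a mutant human presenilin 1, both under the prion protein promoter, which directs them to neurons of the central nervous system. PBS was injected into 5 wild-type (WT) and 5 APP-PS1 mice, and another 5 APP-PS1 mice received anti-CD8a, an antibody to the co-receptor of cytotoxic T cells. All mice were 12 months old and were treated for 4 weeks with 10 injections into the abdomen, of 0.8 mg antibody or of 100 µL PBS. The protocol also names an isotype control antibody, but none of the 15 libraries is labelled with it, so anti-CD8a was compared with PBS only. Gene-assigned counts ran from 17736524 (APP-PS1 PBS replicate 5, choroid-rich) to 36485809 per library, and in 1 library (APP-PS1 PBS replicate 1, choroid-poor) Xist and Y-linked genes went against the labelled sex. The neuronal markers Snap25 and Rbfox3 together stood at 2398 to 2631 CPM over the 15 libraries.

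The choroid plexus is a fold of vascular tissue that hangs into the ventricles of the brain and makes most of the cerebrospinal fluid. Its epithelium, joined by tight junctions, moves salt, bicarbonate and water from blood to fluid, carries vitamins and hormones across, and secretes carrier proteins and growth factors. Beneath the epithelium lie fibroblasts, macrophages and fenestrated capillaries, and at its base it continues into the ciliated ependyma that lines the ventricles.

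Ttr, which carries thyroid hormone and retinol-binding protein in the fluid, stood at 1687 CPM in APP-PS1 PBS replicate 5, 1881 in APP-PS1 anti-CD8a replicate 1, 2222 in WT replicate 3, 4170 in APP-PS1 PBS replicate 2 and 6426 in WT replicate 5. In the 10 choroid-poor libraries it ranged from 20.8 to 108 CPM with a median of 50.1. In the rest of the text, 5 values in a row are given for the choroid-rich libraries in this order of rising Ttr, followed by the lowest, median and highest of the 10 choroid-poor libraries. Beside Ttr, 7 other choroid markers are given, and all 7 lay higher in every choroid-rich library than in every choroid-poor one. Over all genes tested, 230 of 18974 did so (1.21%). The markers were chosen with earlier results of these libraries known, so they describe the classes and are no independent check of the label. Kl, the anti-ageing membrane protein klotho, stood at 107, 92.7, 94.7, 188 and 258 CPM against 23.5, 29.5 and 38.1. Clic6, an intracellular chloride channel protein, stood at 63.3, 44.6, 48.6, 87.8 and 140 CPM against 4.28, 8.89 and 21.1. The summed level of the 7 markers was 208.8 to 625.1 CPM in the choroid-rich libraries and 31.5 to 65.5 CPM in the choroid-poor ones. Fewer choroid cells in a piece of tissue and less choroid RNA per cell cannot be told apart in such bulk samples.

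**Figure D1:**
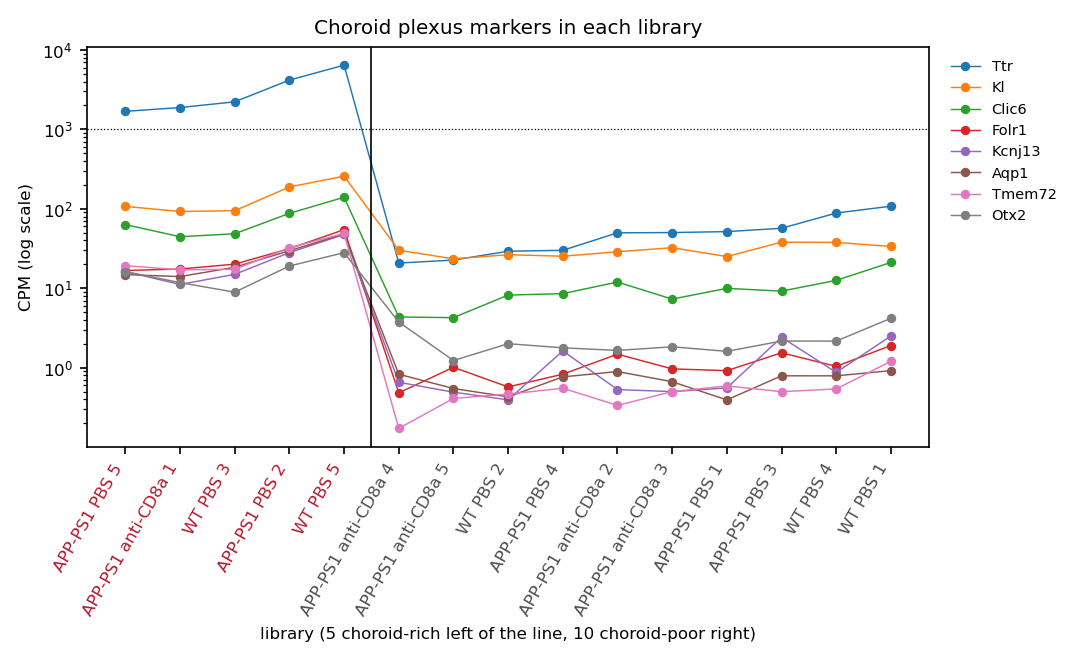
Levels of 8 choroid plexus markers (CPM, log axis) in each of the 15 libraries, ordered by Ttr within each class, with the threshold of 1000 CPM dotted. All 8 markers are higher in the 5 libraries left of the vertical line than in the 10 to its right, and Ttr rises from 1687 to 6426 CPM among the 5.

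The choroid-rich libraries were spread over the study's labels. They were 2 of 5 WT PBS, 2 of 5 APP-PS1 PBS and 1 of 5 APP-PS1 anti-CD8a libraries (exact test over the 3 groups, p = 1). By labelled sex they were 2 females and 3 males against 6 females and 4 males (two-sided Fisher's exact test, p = 0.608), and by the sex that Xist and Y-linked transcripts gave p was 0.329. By the first digits of the animal number they were 3 of series 83 and 2 of series 85, against 6 and 4 (Fisher's exact test, p = 1). With so few libraries these tests can miss an imbalance. Of 6 measures of library size and read assignment, none passed an adjusted p of 0.05 between the classes in exact two-sided permutation tests. The number of genes at 1 CPM or more, and the share of counts in the 100 highest genes, also count choroid genes and are not independent of the rule. The former was 15777 ± 131 (SD, n = 5) in the choroid-rich and 15596 ± 138 (SD, n = 10) in the choroid-poor libraries.

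In a fit with group as covariate, 322 of 18974 genes were called higher in the choroid-rich libraries (1.70% of the genes tested), and 9 were called lower (0.0474%), 331 in all (1.74%). Called means a Benjamini-Hochberg adjusted p below 0.05 in edgeR's quasi-likelihood test. Here it lists genes and tests nothing, because the classes were drawn from the same libraries. Of the 322 genes, 165 were more than 2-fold higher and 73 more than 4-fold (a log2 difference above 2), whereas no gene called lower differed by 2-fold. In 230 genes all 5 choroid-rich libraries lay above all 10 choroid-poor ones (1.21% of those tested), and in 5 genes all lay below (0.0264%). The median log2 difference over all genes was -0.01, and 47.3% of the estimates were above 0. The 5 lists of choroid genes, grouped by role, held 87 tested genes, of which 61 were called higher and none lower. A further 5 members were in the table and had too few counts to be tested (Slurp1, Prap1, Cldn3, Sim2 and Esrp1). The lists were drawn with earlier results of these libraries known. Of the other genes called higher, 13 were on lists of other cell types or processes and 248 on none. Leaving out APP-PS1 PBS replicate 1 gave 281 called genes in place of 331, and the lowest count, 217, came without APP-PS1 PBS replicate 2.

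**Figure D2:**
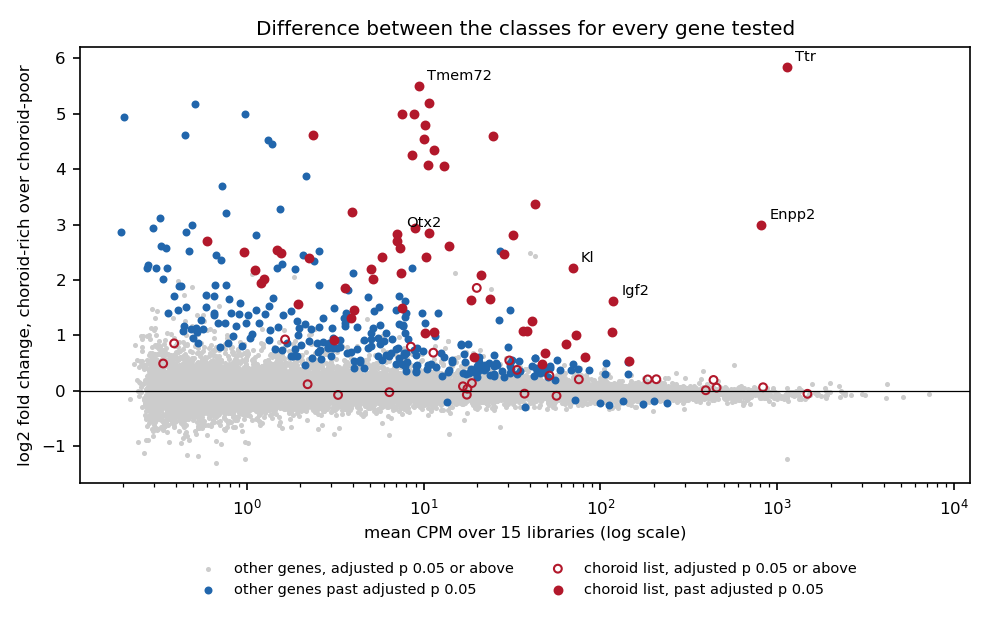
Log2 fold change of choroid-rich over choroid-poor libraries for each of the 18974 genes tested (y axis) against its mean CPM over 15 libraries (x axis, log scale). Genes past adjusted p 0.05 lie almost all above 0, and Ttr has the largest estimate, 5.85.

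Among secreted and binding proteins, 9 of 13 tested members were called higher, and the median log2 difference of the list was 1.61. Enpp2, the phosphodiesterase autotaxin (chr15:54838901-54952892, GRCm38), stood at 1320, 1113, 1253, 2494 and 3629 CPM in the choroid-rich libraries and at 181, 229 and 292 CPM in the others, a log2 difference of 2.99 (SE 0.22). It was the second most abundant gene of the class difference after Ttr, which differed by 5.85 (SE 0.34). 1500015O10Rik, which encodes the secreted peptide precursor augurin, stood at 16, 15.5, 19.7, 33.0 and 59.9 CPM against 0.861, 1.35 and 2.89. Sostdc1, a secreted antagonist of bone morphogenetic proteins, differed by 2.93 (SE 0.23). Lbp, a binding protein of bacterial lipopolysaccharide, differed by 2.42 (SE 0.26), and Igfbp2, which binds insulin-like growth factors, by 1.63 (SE 0.25). In these genes no choroid-poor library reached the lowest choroid-rich one. Igf2, an insulin-like growth factor, did overlap: it stood at 219, 168, 139, 251 and 321 CPM against 29.7, 39.0 and 147. Trf, the iron carrier transferrin, and Clu, clusterin, which many brain cells make, were not called, with log2 differences of 0.27 (SE 0.12) and 0.06 (SE 0.08).

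Among genes of ion and water transport, 12 of 19 were called higher, with a median log2 difference of 0.84. Slc4a5, a sodium bicarbonate cotransporter (chr6:83219828-83304945), stood at 20.7, 17.5, 23.7, 38.8 and 53.7 CPM against 0.311, 0.624 and 1.40, and differed by 5.19 (SE 0.24). Aqp1, the water channel of the apical membrane, stood at 14.9, 14, 18.4, 29.7 and 48.3 CPM against 0.394, 0.780 and 0.921. Kcne2, a potassium channel subunit, stood at 14.3, 12.6, 13.8, 24.0 and 42.1 CPM against 0.380, 0.566 and 0.921. Each of these 3 genes was thus near 1 CPM or less in most choroid-poor libraries and above 12 CPM in every choroid-rich one. Kcnj13, an inward rectifier potassium channel, differed by 4.25 (SE 0.33), and Trpv4, an osmosensitive cation channel, by 2.42 (SE 0.24). Slc12a2 is also expressed by other brain cells, and its difference was smaller. This gene, a sodium, potassium and chloride cotransporter, stood at 192, 158, 148, 208 and 217 CPM against 107, 122 and 141, a log2 difference of 0.53 (SE 0.08).

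Among carriers of nutrients and solutes, 12 of 22 were called higher, with a median of 0.84. Folr1, the folate receptor that takes folate into the fluid (chr7:101858331-101870788), stood at 16.7, 17.5, 20.1, 31.6 and 54.7 CPM against 0.483, 0.991 and 1.90. Abca4, a retinoid flippase known from photoreceptors, stood at 14.8, 15.5, 19.3, 31.8 and 47.3 CPM against 2.56, 2.88 and 4.79. The metal reductases Steap1 and Steap2 differed by 4.61 (SE 0.30) and 1.65 (SE 0.18). The glucose transporter Slc2a12 differed by 2.61 (SE 0.24), and the nucleoside transporter Slc28a3 by 1.95 (SE 0.19). Slc31a1, which brings copper into cells, stood at 52.5, 43.2, 45.9, 68.6 and 89.7 CPM against 23.8, 27.8 and 31.4, and Atp7a, a pump that exports copper, at 21.5, 20.3, 18.8, 26.8 and 30.0 against 10.1, 13 and 15.1. Both copper genes lay higher in every choroid-rich library. Lrp2, the endocytic receptor megalin, was not called, with 2.79 to 3.74 CPM against 1.52 to 4.45.

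Receptors and membrane proteins had the largest median difference of the 5 lists, 2.34, and 16 of 18 were called higher. Tmem72, a transmembrane protein (chr6:116679063-116716913), stood at 19.3, 17.1, 17.3, 32.4 and 49.0 CPM against 0.173, 0.501 and 1.21, and had the largest difference after Ttr, 5.49 (SE 0.25). Prlr, the prolactin receptor (chr15:10177238-10349180), stood at 117, 59.3, 70.4, 124 and 173 CPM against 7.53, 9.88 and 11.5. Its first value, in the library with the least Ttr of the 5, was above those of the next libraries. F5, coagulation factor V, differed by 4.6 (SE 0.26), Col8a1, a short-chain collagen, by 4.34 (SE 0.23), and Mfrp, a frizzled-related membrane protein, by 4.06 (SE 0.21). Ace, the angiotensin-converting enzyme, stood at 45.3 to 98.8 CPM against 7.24 to 17.2. Htr2c, a serotonin receptor that neurons express too, stood at 115, 81.7, 94.4, 124 and 151 CPM against 32.1, 53.2 and 64.5. The epithelial adhesion genes Epcam and Cdh1 were not called. Cdh1 stood at 1.36 to 3.83 CPM in the choroid-rich libraries and reached 4.13 CPM in the choroid-poor ones.

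Of 16 tested genes of tight and adherens junctions, 5 were called higher. Cldn2, a claudin that forms pores for small cations, stood at 22.3, 17.0, 16.6, 35.7 and 51.9 CPM against 0.558, 0.801 and 1.46. Cldn1, a sealing claudin, stood at 12.9, 13.6, 14.6, 23.0 and 19.3 CPM against 1.54, 2.59 and 3.87, and unlike Cldn2 it was not highest in the library with the most Ttr. Cgn, a cytoplasmic plaque protein, stood at 8.57, 9.62, 9.73, 9.86 and 9.53 CPM against 5.46, 5.90 and 7.78, so it varied by far less than Ttr among the 5. The scaffold gene Tjp3 and the junction gene Marveld3 differed by 1.38 (SE 0.22) and 2.01 (SE 0.34).

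Among transcription factors, cytoskeletal and metabolic genes of the epithelium, 12 of 15 were called higher, with a median of 2.12. Otx2, a homeodomain transcription factor that the choroid plexus needs to form (chr14:48657677-48673819), stood at 16.2, 11.8, 8.95, 19.1 and 28.1 CPM against 1.23, 1.92 and 4.19. Lmx1a, another homeodomain factor of the dorsal midline, stood at 1.35, 1.38, 1.62, 2.97 and 3.72 CPM against 0.0345, 0.328 and 0.540. The simple-epithelium keratin genes Krt8 and Krt18 differed by 2.19 (SE 0.24) and 2.40 (SE 0.29). Wdr86, a WD-repeat protein, differed by 3.23 (SE 0.22), Cox8b, a subunit isoform of cytochrome oxidase, by 2.48 (SE 0.24), and Rdh5, a retinol dehydrogenase, by 2.12 (SE 0.22).

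OTX2 binds DNA sites with the core TAATCC, or GGATTA when read on the other strand. Of the 61 choroid genes called higher, 48 had an entry in a RefSeq table of promoters (GRCm38.p6), and 9 of the 48 (18.8%) held at least 1 such core in the 250 bases before a start site. Over all genes of the table the share was 7.21%, and over all windows 6.25%, against 13.4% of the windows of the 48 genes. The 9 were Abca4, Ace, Car14, Cox6b2, Mfrp, Otx2, Rbm47, Steap2 and Vat1l. These are matches of letters, not sites of binding, and the sequence was not compared with any measure of OTX2 on DNA. The 4 windows with the core in capitals are printed as examples among the 9 genes, 1 for each of 4 named choroid genes, and 1 without it, that of Tmem72, because this gene had the largest difference after Ttr. The windows are chr3:122044210-122044459 on the plus strand for Abca4, chr9:44101520-44101769 on the plus strand for Mfrp, chr14:48665110-48665359 on the minus strand for Otx2 (1 of its 4 listed start sites), chr5:5694569-5694818 on the minus strand for Steap2 (1 of 3) and chr6:116716759-116717008 on the minus strand for Tmem72.
Abca4: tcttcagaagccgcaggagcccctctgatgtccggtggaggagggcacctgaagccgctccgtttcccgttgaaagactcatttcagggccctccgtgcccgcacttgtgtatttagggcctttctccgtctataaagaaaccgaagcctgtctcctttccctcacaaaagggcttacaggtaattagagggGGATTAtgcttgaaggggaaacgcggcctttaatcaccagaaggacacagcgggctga
Mfrp: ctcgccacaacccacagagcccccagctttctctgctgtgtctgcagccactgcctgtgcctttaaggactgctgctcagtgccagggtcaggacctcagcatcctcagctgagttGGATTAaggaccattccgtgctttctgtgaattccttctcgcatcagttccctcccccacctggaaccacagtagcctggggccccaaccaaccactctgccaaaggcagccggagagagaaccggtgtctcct
Otx2: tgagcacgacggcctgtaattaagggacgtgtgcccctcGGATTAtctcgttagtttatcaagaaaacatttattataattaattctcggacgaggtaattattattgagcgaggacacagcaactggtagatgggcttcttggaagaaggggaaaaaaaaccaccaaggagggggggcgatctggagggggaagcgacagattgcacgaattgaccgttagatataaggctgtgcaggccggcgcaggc
Steap2: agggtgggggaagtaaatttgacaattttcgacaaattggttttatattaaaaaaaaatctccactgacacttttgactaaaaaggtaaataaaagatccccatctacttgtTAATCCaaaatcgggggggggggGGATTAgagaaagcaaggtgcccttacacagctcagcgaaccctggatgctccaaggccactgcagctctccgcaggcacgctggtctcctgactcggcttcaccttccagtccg
Tmem72: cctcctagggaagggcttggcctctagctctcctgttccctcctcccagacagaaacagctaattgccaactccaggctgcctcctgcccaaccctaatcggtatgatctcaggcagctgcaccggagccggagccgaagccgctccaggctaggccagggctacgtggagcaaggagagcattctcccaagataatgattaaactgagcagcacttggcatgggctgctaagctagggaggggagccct
In Abca4 the core began 58 bases before the start site, in Mfrp 134, in Otx2 211, and in Steap2 138 and 115 bases before it.

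Within the 5 choroid-rich libraries, the proportion to Ttr was nearly constant for some choroid genes and varied for others. For 51 called choroid genes besides Ttr, with a mean of at least 5 CPM in the choroid-rich class, the excess of a library over the mean of the choroid-poor libraries was divided by the same excess of Ttr. The excess of Ttr itself spanned 3.90-fold over the 5 libraries. The highest ratio of a gene was a median of 1.68 times its lowest, was under 1.5 times in 14 genes and was 2 times or more in 14. Abca4 held the tightest proportion, with 6.70 to 7.42 CPM of excess for every 1000 CPM of Ttr excess, a range of 1.11-fold. 1500015O10Rik spanned 1.2-fold and Aqp1 1.23-fold. At the other end Slc12a2 spanned 3.71-fold, Car14, a membrane carbonic anhydrase, 3.4-fold, Igf2 2.81-fold, Otx2 2.77-fold and Prlr 2.56-fold. With nothing subtracted, the ratio to Ttr was 43.2, 30.7 and 19.7-fold higher in the choroid-poor class for Slc12a2, Car14 and Igf2. For Abca4, 1500015O10Rik and Aqp1 it was 8.11, 3.38 and 1.81-fold higher. It was 8.59-fold higher for Otx2, 5.62-fold for Prlr and 41.1-fold for Slco1c1, which spanned 1.57-fold. How far spread in the choroid-poor level widened these ranges was not tested. For Otx2 the ratios were 8.56, 5.21, 3.09, 4.09 and 4.05, and for Prlr 65.5, 27.2, 28.1, 27.7 and 25.6. In both genes APP-PS1 PBS replicate 5 stood apart from the other libraries. This library, with the lowest Ttr of the 5 and the fewest counts of all 15, had the highest ratio in 41 of the 51 genes, at a median of 1.33 times the gene's own median ratio. All ratios of a library share 1 divisor, its Ttr excess, so the 41 genes are not independent of each other. The part of the low depth of this library, or of its low Ttr, was not tested. Cldn1 had its lowest ratio, 2.60, in WT replicate 5, the library with the most Ttr, against 4.94 to 6.25 in the other 4.

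**Figure D3:**
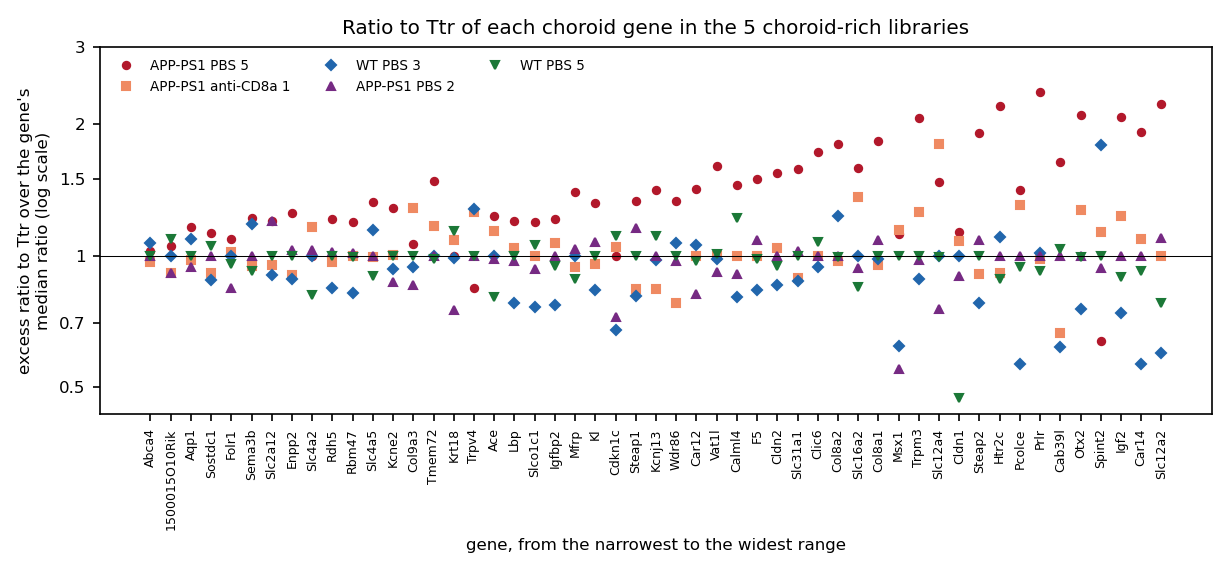
Excess of each of 51 choroid genes relative to the excess of Ttr in the 5 choroid-rich libraries, divided by the gene's median over the 5 (y axis, log scale), with genes ordered by their range (x axis). APP-PS1 PBS replicate 5 gives the highest point in 41 genes, and the spread grows from Abca4 (1.11-fold) to Slc12a2 (3.71-fold).

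Of 31 tested genes of ependyma and motile cilia, 29 had estimates above 0 and 5 were called higher, with a list median of 0.44 beside -0.01 over all genes. Dnah6, an axonemal dynein, stood at 15.9, 11.3, 12.4, 19.5 and 25.8 CPM against 1.59, 6.95 and 9.71. Cfap65, Cfap52, Tekt1 and Dynlrb2, all parts of the ciliary axoneme or its motor, differed by 0.83 to 1.21 on the log2 scale. All 5 calls were lost with sex read from the genes as a term, in the APP-PS1 libraries alone and without WT replicate 5, where Dnah6 differed by 1.12, 1.07 and 1.00. Foxj1, the master factor of motile cilia, stood at 9.70, 9.05, 9.26, 11.9 and 20.8 CPM against 3.70, 6.24 and 9.41, and was not called. The markers Ccdc153 and Tmem212 overlapped between the classes. One choroid-poor library, APP-PS1 anti-CD8a replicate 4, held them at 0.138 and 0.0691 CPM, whereas each of the other 14 libraries held at least 3.25 CPM of Ccdc153 and 1.51 CPM of Tmem212. The same library had the lowest Ttr of the series, 20.8 CPM, and the highest summed level of thalamic genes among the choroid-poor libraries, 1389 CPM, as against 653 to 953 CPM in the other 9.

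Of 29 genes of meningeal and choroid fibroblasts, 27 had estimates above 0, with a median of 0.52, and none was called (5 at an unadjusted p under 0.05, and none in DESeq2). Their summed level was 924 to 1622 CPM in the choroid-rich libraries. Among the choroid-poor libraries it took 2 ranges: 592 to 687 CPM in 6 of them, and 1527, 1533, 1813 and 2075 CPM in APP-PS1 PBS replicate 4, APP-PS1 anti-CD8a replicate 4, WT replicate 1 and APP-PS1 PBS replicate 3. The summed markers Col1a1, Col1a2, Dcn, Lum and Slc6a13 did not part in this way. APP-PS1 anti-CD8a replicate 4 held 94.5 CPM of them, and WT replicate 4, of the lower range, held 95.9. The other libraries of the higher range held 128, 150 and 172 CPM. Col1a2, a chain of type I collagen, stood at 19.7, 17.8, 9.26, 18.8 and 17.0 CPM against 4.17, 5.27 and 22.3. In Slc13a4 and Cdh1, genes of the choroid lists singled out after their values were seen, the 4 choroid-poor libraries of the higher range were high. Slc13a4, a sulfate carrier, stood at 14, 16.1, 25.0 and 32.4 CPM in those 4 and at 2.00 to 3.5 CPM in the other 6, against 21.8 to 55.8 CPM in the choroid-rich libraries. Cdh1 stood at 0.691, 2.61, 3.94 and 4.13 CPM in those 4 and at 0.0328 to 0.323 CPM in the other 6. Border macrophage genes were not called either (12 tested, 2 at an unadjusted p under 0.05, none in DESeq2). Mrc1, a scavenger receptor of these cells, stood at 9.70, 9.28, 5.18, 11.9 and 8.22 CPM against 3.61, 4.37 and 12.3. Of 9 genes of fenestrated endothelium only Esm1 was called, with 0.503 to 1.00 CPM against 0.292 to 0.625 CPM, and DESeq2 called none.

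All 15 microglia genes had estimates below 0, with a median of -0.22, where 52.7% of all genes were below 0. None was called (3 at an unadjusted p under 0.05, none in DESeq2). P2ry12, a purine receptor of microglia, stood at 74.3, 62.6, 48.1, 65.2 and 55.6 CPM against 53.5, 69.7 and 92.9, so the classes overlapped. All 14 general neuronal genes were below 0 with a median of -0.05, and all 16 myelin genes were above 0 with a median of 0.13. None of either list was called (1 and 3 at an unadjusted p under 0.05, none in DESeq2). Of 10 habenular genes 2 were called, Htr2c and the nicotinic receptor subunit Chrnb4, which stood at 0.733, 0.641, 0.666, 1.00 and 1.12 CPM against 0.0717, 0.156 and 0.542. Chrna3, which lies in the same gene cluster, overlapped between the classes. Cux1, a factor of upper cortical layers, stood at 58.0 to 64.2 CPM against 48.1 to 56.8, and Ppp1r1b, the striatal phosphoprotein DARPP-32, at 33.8, 35.3, 34.7, 43.5 and 56.4 CPM against 23.5, 27.0 and 30.7. The lists of cortical and striatal projection neurons had medians of -0.01 and 0.10, with no other member called.

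**Figure D4:**
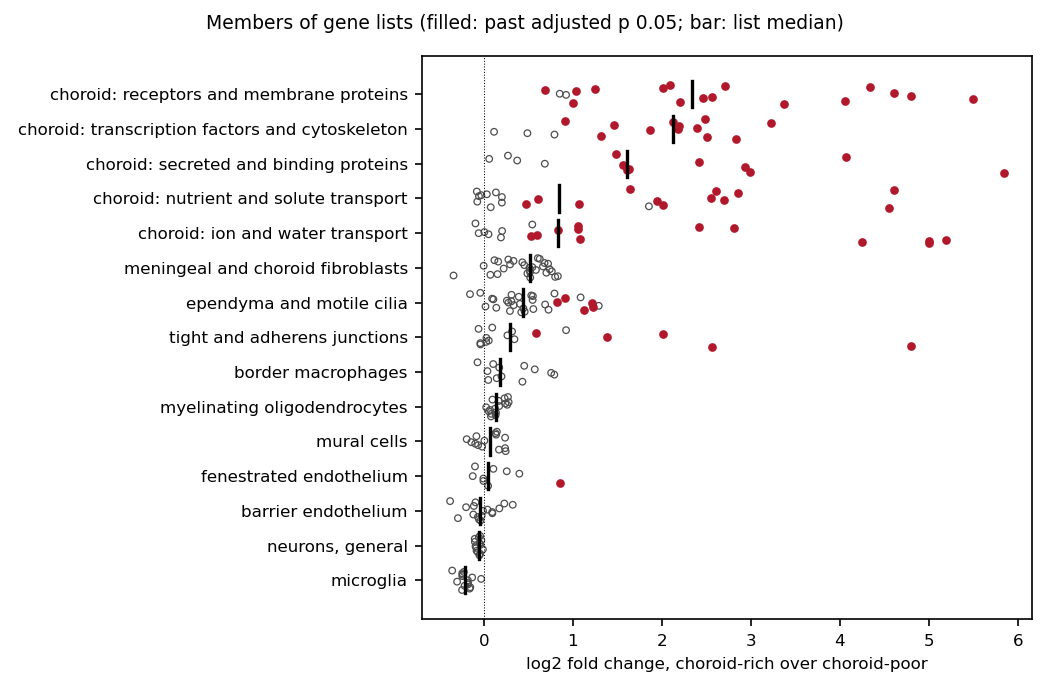
Log2 fold change of choroid-rich over choroid-poor libraries for the members of 15 gene lists, with filled points past adjusted p 0.05 and bars at the list medians. The 5 choroid lists have medians from 0.84 to 2.34, ependyma lies at 0.44, and microglia at -0.22 with all 15 members below 0.

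Some genes outside the lists were as different as some of the markers. Tmprss11a, a membrane serine protease, and Wfdc2, a secreted whey-acidic domain protein, were among those named by size, with log2 differences of 4.53 (SE 0.30) and 4.46 (SE 0.32). A further 5 were picked after their values were seen. Sulf1, an enzyme that trims heparan sulfate, stood at 38.1 to 108 CPM against 6.82 to 12.8. Oca2, a membrane carrier of pigment cells, stood at 2.43 to 11.3 CPM against 0.207 to 0.583, and Cdh3, a cadherin of epithelia, at 1.72 to 4.07 CPM against at most 0.208. The basement membrane collagens Col4a3 and Col4a4 differed by 2.34 (SE 0.15) and 1.81 (SE 0.18). All 9 genes called lower differed by little. Grhl1, a grainyhead-like factor, stood at 29.3, 33.6, 35.2, 31.2 and 35.0 CPM against 35.9, 38.5 and 48.2, the largest of them at -0.29 (SE 0.05). Gpd1, Tanc1, D430019H16Rik, Sertm1, Zfp112, Specc1, Cdc42se2 and Ctif lay between -0.26 and -0.18. Only Grhl1, Sertm1 and Zfp112 among these 9 had no overlap between the classes.

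The choroid-poor libraries held transcripts of choroid genes too, but not in the proportion to Ttr of the choroid-rich ones. The plain ratio of CPM to Ttr CPM was more than 2-fold higher in the choroid-poor class for 47 of 51 genes. For 30 of them it was more than 10-fold higher. Kl, 1 of the 7 markers, stood at 593 CPM for every 1000 CPM of Ttr, against 45.2 in the choroid-rich class. Which cells made these transcripts in the choroid-poor libraries was not tested. Over the 10 libraries the summed level of the 7 markers without Ttr had a Pearson's r of 0.917 and a Spearman's rho of 0.770 with Ttr, and r was 0.743 without the 2 libraries farthest from the median of Ttr. For ependymal markers r was 0.538 and 0.355 without those 2 libraries, for fibroblast markers 0.360 and 0.070, and for microglial genes -0.350 and 0.260. In the 6 libraries of animal series 83 the choroid markers had r = 0.958, and the 4 of series 85 were too few for a value. These 4 relations were chosen after the classes had been seen and use the Ttr values that made the classes, so they are a description of these libraries with no test.

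The comparisons of genotype and treatment were fitted with and without the classes. By label most WT mice were female and most mice of both APP-PS1 groups were male, and these fits had no term for sex. With labelled sex added beside the class, all 9 called genes named by rule for the genotype comparison kept their call. For anti-CD8a APP-PS1 against WT PBS all 12 did. The genes named by rule include those of smallest p, so the other called genes are not covered. In APP-PS1 PBS replicate 1, labelled male, Xist and Y-linked genes read as female. Sex read from the genes was not fitted in these group comparisons. With class as a term in the model, 152 genes were called between the genotypes under PBS (0.801% of those tested), 124 of them higher in APP-PS1 (0.654%) and 28 lower. Without the term 115 were called (0.606%), 102 higher and 13 lower. All 115 were among the 152, and 37 were added, 22 higher and 15 lower (edgeR's quasi-likelihood test, adjusted p below 0.05). Prnp rose from 1028 ± 34.1 to 2339 ± 163 CPM (SD, n = 5) and App from 1257 ± 33.2 to 2728 ± 198, with log2 changes of 1.17 (SE 0.06) and 1.10 (SE 0.07). The transgenes carry APP sequence and the prion protein promoter, and reads from them were not told apart from those of the mouse genes. Their estimates without the class term were 1.17 and 1.10, so they did not move. Lamr1-ps1, a pseudogene, was at 3.90 ± 0.642 CPM in APP-PS1 PBS and had no count in any of the 5 WT libraries. The plaque-associated microglial genes Clec7a, a glucan receptor, and Cst7, a protease inhibitor, rose by 3.70 (SE 0.29) and 5.76 (SE 0.50), and Gfap, the filament of reactive astrocytes, by 1.11 (SE 0.15). Of 15 microglia genes 6 rose with the class term and 4 without it. Csf1r, Cx3cr1, Itgam, Irf8 and Cd86, all of them genes of microglia or myeloid cells, were among the 22 added as higher and were picked after their values were seen. For Cx3cr1 the log2 change was 0.47 (SE 0.10, adjusted p = 0.0336) with the term and 0.47 (SE 0.12, adjusted p = 0.0954) without it. The change was as large in both fits and its error was smaller with the class term. With the 10 choroid-poor libraries alone, 19 genes were called (0.0995%), all of them among the 152. This comparison rested on 3 WT and 3 APP-PS1 PBS libraries, and the part of the smaller groups in the lower count was not tested.

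In edgeR no choroid gene was called in the 3 comparisons of groups, and DESeq2 called 3 genes in 1 of them. The class was cut from Ttr, so a class term takes up the spread of Ttr and of genes that vary with it by construction. The smaller errors and the shift of group medians with the term are therefore a description of the fits. Calls of choroid genes, and their counts under an unadjusted p, likewise only list genes. Over the 87 genes of the 5 lists, the median standard error of the genotype difference was 0.246 with the class term and 0.568 without it, as against 0.0961 and 0.0992 over all genes. None was called with or without the term in edgeR, with 5 at an unadjusted p under 0.05 with the term and none in DESeq2. Their median log2 difference between genotypes was -0.13 with the term and -0.20 without, beside -0.01 over all genes in both fits. Between anti-CD8a and PBS in APP-PS1 mice it was -0.19 with the term and -0.64 without it, where 1 of 5 and 2 of 5 libraries were choroid-rich. Of the 87 genes 67 had estimates below 0 with the term, where 54.4% of all genes were above 0. Ttr differed by -0.43 (SE 0.38) with the term and by -1.56 (SE 1.61) without it. In that comparison 12 of the 87 genes had an unadjusted p under 0.05 with the term and DESeq2 called none. Between anti-CD8a APP-PS1 and WT PBS mice the median was -0.31 with the term and -0.84 without, and 75 of the 87 genes were below 0 with the term, where 49.5% of all genes were above 0, with 29 genes at an unadjusted p under 0.05. Wdr86 had the smallest adjusted p, at -1.10 (SE 0.29), and was not called in edgeR. DESeq2 listed 3 genes as lower, Cox8b, Slc35f3 and Wdr86.

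**Figure D5:**
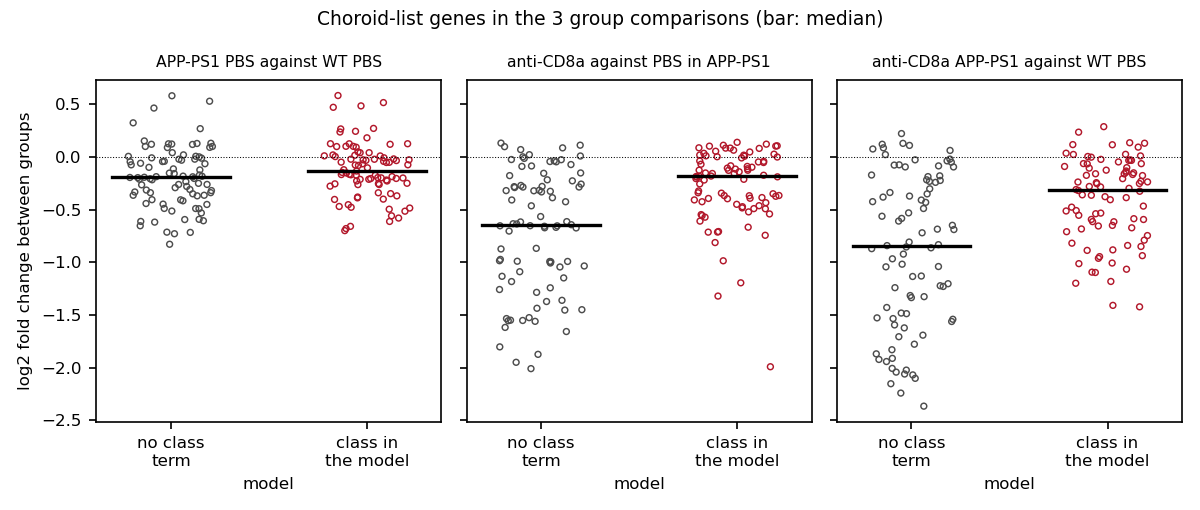
Log2 fold changes of the 87 choroid-list genes in the 3 group comparisons, without and with the choroid class in the model, with bars at the medians. The median moves from -0.64 to -0.19 for anti-CD8a against PBS and from -0.84 to -0.31 for anti-CD8a APP-PS1 against WT PBS, and by less for genotype.

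No gene was called between anti-CD8a and PBS in APP-PS1 mice in edgeR, with the class term or without it. With the term 2382 genes had an unadjusted p under 0.05 and the smallest adjusted p was 0.162, and DESeq2 with the same terms called 77 genes, 39 higher and 38 lower. Npas4, an activity-dependent transcription factor of neurons, had the smallest p, with 15.9 ± 2.75 CPM (SD, n = 5) in anti-CD8a against 8.35 ± 2.34 in PBS libraries and a log2 difference of 0.96 (SE 0.16). Its estimate was 0.95 without the term and 0.97 in the choroid-poor libraries alone. Sema3d, a secreted guidance protein, had -0.65 (SE 0.11) with the term and -0.66 in both other fits. Between anti-CD8a APP-PS1 and WT PBS mice 273 genes were called with the term (1.44% of those tested), 237 of them higher (1.25%) and 36 lower, and 285 without it (1.5%). Of these, 254 were shared, 19 were added by the term and 31 were lost with it. The choroid-poor libraries alone, with 4 anti-CD8a and 3 WT libraries in this comparison, gave 81 (0.424%). The interferon-response genes Trim30a and Irf7 rose by 1.05 (SE 0.17) and 1.42 (SE 0.27) with the term, and of 20 genes of that list 11 rose with it and 12 without. In the choroid-poor libraries alone neither Trim30a nor Irf7 was called, with estimates of 0.98 (edgeR adjusted p = 0.0678) and 1.44 (adjusted p = 0.136), and Irf7 was not called without WT replicate 2. The comparisons share groups and are not independent of each other.

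A class by genotype interaction was fitted in the 10 PBS libraries, with 2 choroid-rich and 3 choroid-poor libraries of each genotype. The class was cut from Ttr, so for Ttr and genes that vary with it the values only describe the libraries. No gene of 19393 passed an adjusted p of 0.05 for the interaction in edgeR, 330 had an unadjusted p under 0.05, and none of the 88 choroid genes tested was among these. For Ttr the interaction was 0.12 (SE 0.77) on the log2 scale, and over the choroid genes the median was -0.18 with a median standard error of 0.509. The size of these errors limits what the 10 libraries can show. DESeq2 called 1 gene, Ide, the insulin-degrading enzyme, which also cleaves amyloid beta (log2 interaction 1.2, adjusted p = 0.00553). The call was not shared by edgeR, where the smallest adjusted p of any gene was 0.999974 (quasi-likelihood test).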

How the data were processed

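The authors deposited raw counts of reads per gene for 15 libraries. Per the submitters' processing notes, FastQC, Bowtie2 2.2.2, HTSeq 0.11.2, DESeq2 and the build GRCm38 were used, in roles the notes do not give, and the protocol names stranded poly(A) libraries read on a NextSeq 500. Of the deposited identifiers, 45143 of 46078 had a symbol, and those without held 0.101% of counts. The summary lines of the counter were left out, with 20.0 to 25.9% of reads in no feature. Library totals of 17736524 to 36485809 counts set the precision of low genes.

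Members and gene lists were chosen with earlier results of these data known. Each library is 1 mouse. Genes kept by filterByExpr were fitted with edgeR 4.0.16 (R 4.3.3) after TMM scaling, by the quasi-likelihood test with group and choroid class as terms, over all genes, with Benjamini-Hochberg adjustment. Standard errors are the log2 change divided by the square root of the F statistic. The script was tested on simulated data with known changes. Alternatives used DESeq2 1.42.0, limma 3.58.1 voom, other scalings, filters, covariates and class rules, and left out each library in turn. Single values were compared by exact permutation tests or Fisher's exact test. Genes named were Ttr, the 15 largest higher and 15 largest lower class estimates among called genes with a mean of at least 1 CPM, from each list in the text at most 6 genes by p, in each group comparison the 5 genes of smallest p with up to 4 of the microglial, interferon and immediate early lists, and App, Prnp, Cst7, Gfap, Npas4, Arc and Sgk1. Members named as not called, or with a note of choice, were picked after their values were seen.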

Additional observations from a re-analysis of the deposited data

Results flagged for a closer look

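In the classes of 5 and 10 libraries, a single library far from the others by Dixon's 95% criterion was looked for in 114 sets of values. Chance gives about 1 such case in 20 groups, and 3 were flagged, fewer than that rate gives. Of the choroid-poor libraries, APP-PS1 anti-CD8a replicate 3 held a summed 133.354 CPM of 2 microglia markers, where the next library held 101.795. APP-PS1 anti-CD8a replicate 4 held a summed 1388.68 CPM of thalamic genes, where the next held 952.868. WT replicate 1 held a summed 14.9835 CPM of midbrain and hindbrain genes, where the next held 11.6192.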

How the results depend on the processing

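No paired analysis was possible because the replicate numbers were given in accession order and pair no libraries. The class difference, with 331 called genes, gave 196 with sex read from the genes as a term and 171 in the 10 APP-PS1 libraries alone, an alternative chosen after seeing the data, and from 217 (without APP-PS1 PBS replicate 2) to 420 (without WT replicate 3) when each library was left out. The genotype comparison gave 389 genes in DESeq2, 252 with no filter and 19 in the choroid-poor libraries, and 67 (without APP-PS1 PBS replicate 5) to 247 (without APP-PS1 anti-CD8a replicate 3) with a library left out. The treatment comparison gave 77 in DESeq2, 20 with no filter and 0 to 2 with a library left out. Anti-CD8a APP-PS1 against WT PBS gave 466, 420 and 81 in the same 3 settings, and 119 (without WT replicate 2) to 368 (without APP-PS1 anti-CD8a replicate 2). The interaction gave 1 gene in DESeq2, and in edgeR 0 with all libraries and 0 with each library left out. DESeq2 was not refitted with a library left out. The class difference in the share of counts in the top 100 genes was -0.120 percentage points by means and 0.0556 by medians. The cause of these changes was not tested. Without APP-PS1 PBS replicate 1, the counts were 281, 137, 1, 237 and 0 for class, genotype, treatment, both and interaction. Of the genes named by rule for the class difference, 58 were called and none reversed in 29 settings, and up to 19 lost their call (APP-PS1 libraries alone), with 14 lost when sex read from the genes was added and 14 without APP-PS1 anti-CD8a replicate 1. Low counts limit the choroid genes in the choroid-poor libraries.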
